A study of Mus musculus with 8 samples.

Results

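The genes described here make, lengthen, desaturate, activate and carry fatty acids. They were 42 genes named by symbol, from the enzymes that supply acetyl-CoA to the proteins that bind and hydrolyse acyl-CoA, out of 20018 mouse genes that had a named probe on the array. All 42 had at least 1 probe (58 probes in all), and 39 of the 42 had a probe bright enough to be tested. The samples were whole retinas of 2-week-old C57BL/6 mice, 4 Lpcat1 WT and 4 Lpcat1 KO. Lpcat1 encodes lysophosphatidylcholine acyltransferase 1, which puts palmitate into phosphatidylcholine and so makes its dipalmitoyl form. The KO line came from a C57BL6/N background and had been crossed to C57BL6/J so that no animal was homozygous for the rd8 mutation of Crb1. The sources name no Cre driver, treatment or other allele for either group. The labels do not say whether the samples were separate animals, so p-values measure only the spread between these 4 and 4 samples.

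Fatty acid synthase builds palmitate from acetyl-CoA and malonyl-CoA, and a membrane-bound cycle then lengthens chains by adding carbons from malonyl-CoA, with an ELOVL enzyme setting which chains enter. Saturated chains are lengthened mainly by ELOVL1, ELOVL3, ELOVL6 and ELOVL7, and SCD enzymes introduce the first double bond. The polyunsaturated chains that rod outer segments are rich in, docosahexaenoic acid among them, are made from dietary precursors by the desaturases FADS1 and FADS2 and the elongases ELOVL2, ELOVL4 and ELOVL5.

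Each level below is the log2 of a probe's background-subtracted signal minus the 75th percentile of its own array, so a level of 0 is a probe at that percentile. A difference is KO minus WT on the same log2 scale, with 1 probe a gene, and levels of different probes are not compared. A gene was called when limma's adjusted p (Benjamini-Hochberg over 33972 probes) was under 0.05 and the fold change over 1.2, which is 0.26 on the log2 scale. Lpcat1 itself was at -0.41 ± 0.03 (SD, n = 4) in WT and -0.87 ± 0.06 (SD, n = 4) in KO, a difference of -0.46 (SE 0.04, limma adjusted p = 0.0036). The KO signal was thus 72.5% of WT, and whether this probe lies in the deleted stretch was not examined. The 75th percentile signal was 669 to 716 on the WT arrays and 638 to 738 on the KO arrays, and no spot was saturated. All 8 arrays were on 1 slide, with the WT samples in one row and the KO samples in the other, so row and genotype cannot be told apart.

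Across the 39 tested genes the differences ran from -0.41 to 0.22, with a median of 0.00, beside a median of -0.02 over 14937 tested genes. One member passed both limits, Fabp7, which was lower in KO. No member was called higher, where 1.99% of all tested genes were, and 1 of 39 was called lower, where 1.49% of all were. With no minimum fold change, 1 member was higher at a limma adjusted p under 0.05 (Elovl6), against 3.3% of all genes, and 2 were lower (Fabp7 and Dbi), against 3.32%. At an unadjusted limma p under 0.05 there were 10 members, and 26.2% of all genes passed. All 4 KO values lay above all 4 WT values for 3 members (Acaca, Fasn and Elovl6), against 8.77% of all genes, and below them for 6 (Elovl1, Acsl1, Slc27a2, Fabp5, Fabp7 and Dbi), against 12.4%. These shares are near those of all genes. Of the 39 members, 23 differed by less than 0.1, as did 59.6% of all tested genes.

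**Figure D1:**
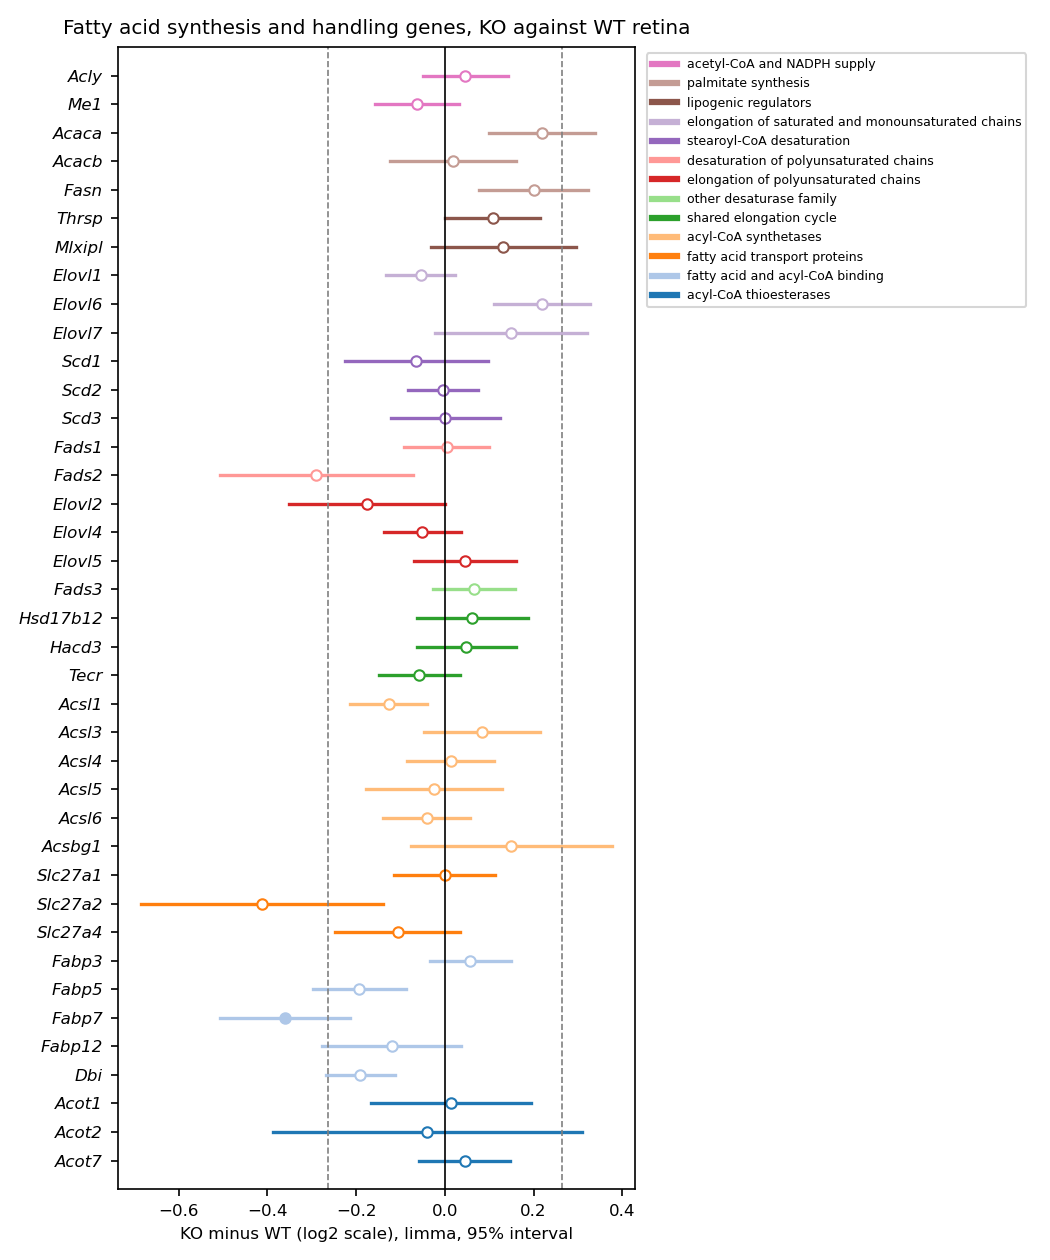
Difference between KO and WT (x axis, log2 scale) for each of the 39 tested genes (y axis, coloured by role), with bars for limma's 95% interval, 4 arrays a group. The filled point, Fabp7 at -0.36, is the only one past both limits, and the dashed lines mark a fold change of 1.2.

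The promoters of 4 members are printed because these members turn up in the results below: Acaca, Fasn and Elovl6, whose KO values lay above all WT values, and Fabp7, the called member. Each is the 250 bases before the annotated start, 5′ to 3′ along the gene, from RefSeq on GRCm38.p6, and 36 of the 42 members had such a window in the table. Capitals mark CCAAT, the letters of the box bound by NF-Y, which read ATTGG where the box is on the opposite strand. Acaca is at chr11:84195188-84195437 on the plus strand, Fasn at chr11:120824548-120824797 on the minus strand, Elovl6 at chr3:129532136-129532385 on the plus strand and Fabp7 at chr10:57784673-57784922 on the plus strand.
Acaca: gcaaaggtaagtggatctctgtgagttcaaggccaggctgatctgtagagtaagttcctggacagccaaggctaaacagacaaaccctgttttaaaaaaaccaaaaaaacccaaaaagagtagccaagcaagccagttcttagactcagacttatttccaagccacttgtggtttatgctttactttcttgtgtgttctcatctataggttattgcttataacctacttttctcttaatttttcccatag
Fasn: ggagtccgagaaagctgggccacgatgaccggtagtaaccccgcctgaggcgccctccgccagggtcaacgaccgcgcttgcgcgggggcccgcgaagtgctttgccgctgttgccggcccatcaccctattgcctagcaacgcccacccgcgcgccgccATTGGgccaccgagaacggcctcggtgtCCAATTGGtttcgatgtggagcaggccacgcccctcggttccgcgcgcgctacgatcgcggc
Elovl6: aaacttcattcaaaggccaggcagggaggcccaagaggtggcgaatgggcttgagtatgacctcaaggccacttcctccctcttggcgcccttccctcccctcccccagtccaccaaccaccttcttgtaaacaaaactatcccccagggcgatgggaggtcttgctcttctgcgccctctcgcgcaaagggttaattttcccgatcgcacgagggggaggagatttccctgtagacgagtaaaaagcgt
Fabp7: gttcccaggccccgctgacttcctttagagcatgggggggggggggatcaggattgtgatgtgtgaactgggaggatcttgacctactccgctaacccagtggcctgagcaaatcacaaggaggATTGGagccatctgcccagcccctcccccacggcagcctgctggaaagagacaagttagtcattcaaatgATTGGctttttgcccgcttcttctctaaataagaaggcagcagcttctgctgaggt
Fasn held CCAAT 3 times, once on its own strand (bases 62 to 58 before the start) and 2 times on the opposite strand (90 to 86 and 59 to 55), where the last overlaps the first. Fabp7 held it 2 times on the opposite strand (126 to 122 and 56 to 52). Acaca and Elovl6 held none. The Acaca window ends in a run of pyrimidines and ag, the letters seen at the end of an intron, so its annotated start may not be the main start of transcription, which was not examined, and its lack of a match describes this window only. On both strands CACGTG (an E-box), TCACCCCA (a sterol element) and GGGCGG (a GC box) were searched too, and none of the 4 windows held any of these. Over 32817 windows of the same length, 33.83% held CCAAT, 6.02% CACGTG, 1.34% TCACCCCA and 32.72% GGGCGG. A match describes these letters only.

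The genes that make palmitate had small positive differences, none of them called. Acaca encodes acetyl-CoA carboxylase 1, which makes the malonyl-CoA used in synthesis. Its level was 3.62, 3.61, 3.69 and 3.72 in WT replicates 1 to 4 and 3.80, 3.84, 3.88 and 3.99 in KO. The groups did not overlap. The difference was 0.22 (95% interval 0.10 to 0.34), with a limma adjusted p of 0.05002, just past the limit, and the fold was under 1.2. Its other probes differed in sign, at -0.13 and 0.31 (limma adjusted p = 0.367 and 0.134), and the mean of all its probes gave 0.13. Acaca passed both limits only under quantile normalization, at 0.26 (limma adjusted p = 0.024).

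Fasn, fatty acid synthase, was at -0.35, -0.51, -0.46 and -0.52 in WT and -0.29, -0.34, -0.20 and -0.22 in KO. Every KO array was above every WT array, by little at the edge. The difference was 0.20 (95% interval 0.08 to 0.32, limma adjusted p = 0.0677). Acacb, the carboxylase isoform tied to mitochondria, was at -1.45, -1.42, -1.54 and -1.54 in WT and -1.35, -1.41, -1.58 and -1.54 in KO. Its groups overlapped throughout, with a difference of 0.02 (95% interval -0.12 to 0.16, limma adjusted p = 0.889).

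The enzymes that feed synthesis showed no called difference. Acly, which makes cytosolic acetyl-CoA from citrate, was at 4.55, 4.64, 4.54 and 4.63 in WT and 4.68, 4.65, 4.60 and 4.62 in KO, a difference of 0.05 (95% interval -0.05 to 0.14), while its other probe gave -0.04. Me1, malic enzyme, a source of NADPH, was at 3.41, 3.30, 3.31 and 3.39 in WT and 3.24, 3.32, 3.29 and 3.30 in KO, a difference of -0.06 (95% interval -0.16 to 0.03). In both genes the groups overlapped. Thrsp, a lipogenic nuclear protein, differed by 0.11 (limma adjusted p = 0.205), and Mlxipl, the carbohydrate-responsive factor ChREBP, by 0.13 (limma adjusted p = 0.308), or 0.062 without KO replicate 2.

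Among the elongases of saturated and monounsaturated chains, Elovl6 had the largest difference. ELOVL6 lengthens palmitate to stearate. Elovl6 was at 2.72, 2.77, 2.89 and 2.82 in WT and 2.95, 3.03, 3.04 and 3.06 in KO, with no overlap. The difference was 0.22 (SE 0.05, 95% interval 0.11 to 0.33, limma adjusted p = 0.0401), a 1.16-fold change and so under the fold limit. Leaving out single arrays kept it between 0.19 and 0.25, with a limma adjusted p of 0.0418 to 0.111 and under 0.05 in 1 of 8 runs.

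Elovl7, an elongase of long saturated chains, was at -0.85, -1.10, -0.84 and -1.08 in WT and -0.86, -0.71, -0.83 and -0.86 in KO. The groups overlapped and the difference was 0.15 (95% interval -0.02 to 0.32, limma adjusted p = 0.273). Elovl1, which makes very-long-chain saturated acyl-CoA, was at 2.89, 2.86, 2.83 and 2.82 in WT and 2.82, 2.81, 2.77 and 2.79 in KO. Its KO values were all lower, yet the difference was -0.05 (95% interval -0.13 to 0.02, limma adjusted p = 0.371). Elovl3, another saturated-chain elongase, was not well above background on any array.

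The stearoyl-CoA desaturases did not differ by an amount these arrays resolved. SCD enzymes turn saturated acyl-CoA into monounsaturated acyl-CoA. Scd2, the form most used in neural tissue, was at 4.85, 4.80, 4.83 and 4.83 in WT and 4.86, 4.80, 4.83 and 4.79 in KO. The difference was 0.00 (95% interval -0.08 to 0.07). Scd1 was at -2.22, -2.15, -2.06 and -2.19 in WT and -2.09, -2.15, -2.25 and -2.38 in KO, a difference of -0.06 (95% interval -0.23 to 0.10), which ran from -0.108 to -0.00936 when single arrays were left out. Scd3 differed by 0.00 (95% interval -0.12 to 0.12), and by -0.05 on its other tested probe. These genes are paralogs, and whether their probes share signal was not examined.

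The polyunsaturated branch had no called gene and no gene whose groups were apart. Fads2, the delta-6 desaturase at the entry of the branch, was at -2.49, -2.29, -2.26 and -2.28 in WT and -2.59, -2.80, -2.38 and -2.70 in KO. Only KO replicate 3 reached into the WT range. The difference was -0.29 (95% interval -0.51 to -0.07, limma adjusted p = 0.111, two-sided exact permutation p = 0.0571), and it was -0.16 with normexp background correction.

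Elovl2, which lengthens C20 and C22 chains on the way to docosahexaenoic acid, was at 1.57, 1.54, 1.47 and 1.62 in WT and 1.56, 1.37, 1.37 and 1.19 in KO. KO replicate 1 lay among the WT arrays. The difference was -0.18 (95% interval -0.35 to 0.00, limma adjusted p = 0.212, two-sided exact permutation p = 0.0857). Leaving out single arrays moved it between -0.24 and -0.12, the latter without KO replicate 4.

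Elovl4, the elongase that makes very-long-chain polyunsaturated fatty acids in photoreceptors, was at 4.17, 4.11, 4.18 and 4.12 in WT and 4.09, 4.11, 4.13 and 4.05 in KO. The groups overlapped, with a difference of -0.05 (95% interval -0.14 to 0.04, limma adjusted p = 0.455), and its other probe gave -0.04. Under quantile normalization the difference of Elovl4 was -0.0122. Elovl5, which lengthens C18 and C20 polyunsaturated chains, was at 0.88, 1.03, 1.06 and 0.93 in WT and 1.00, 1.07, 0.97 and 1.03 in KO, a difference of 0.05 (95% interval -0.07 to 0.16), or 0.0143 to 0.0725 when single arrays were left out. Fads1, the delta-5 desaturase, was at 1.04, 1.04, 0.93 and 1.05 in WT and 0.98, 1.03, 1.06 and 1.02 in KO, a difference of 0.00 (95% interval -0.09 to 0.10).

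**Figure D2:**
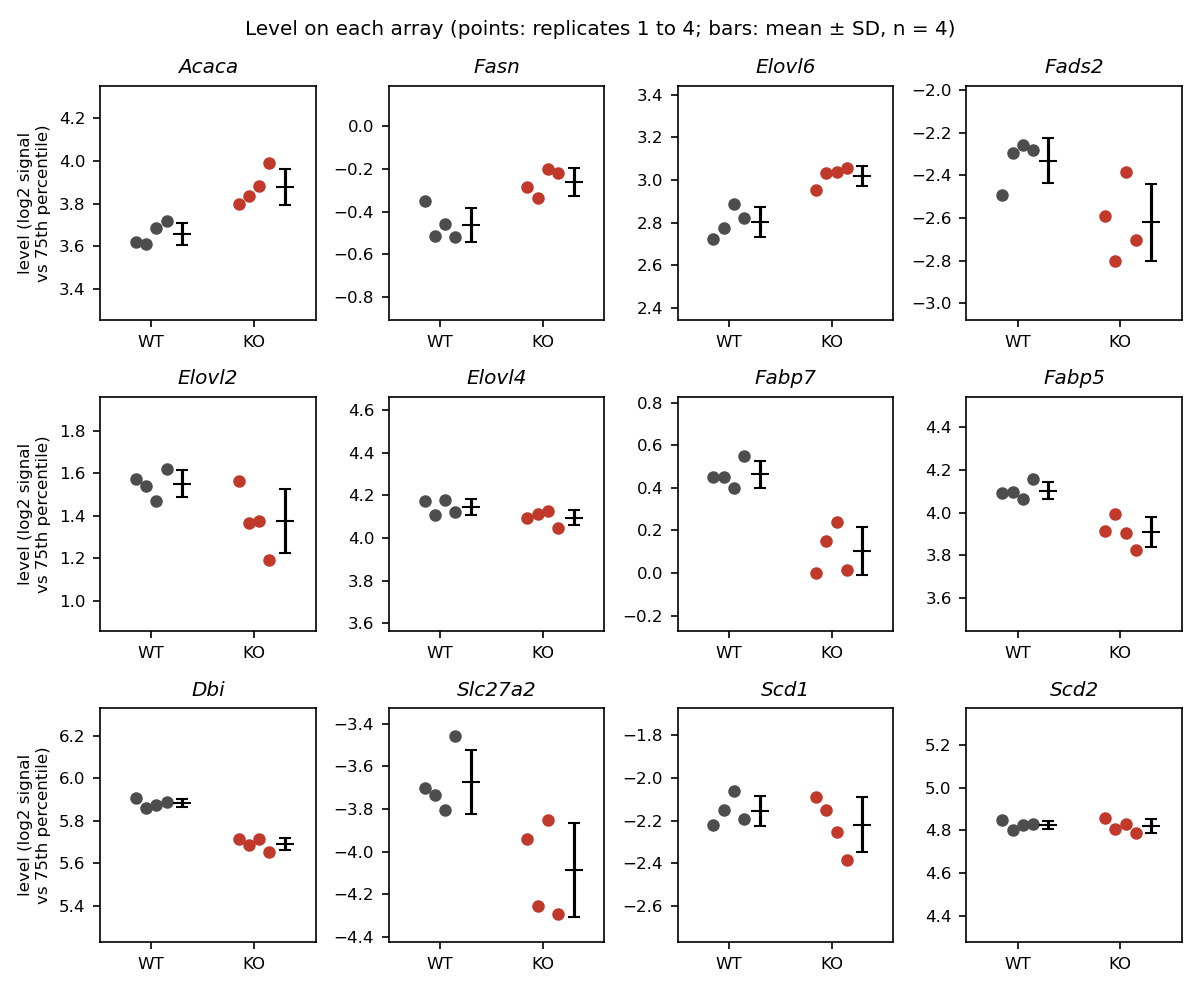
Level (y axis, log2 scale, 0 being the 75th percentile of the array) of 12 members on each WT and KO array, with points for replicates 1 to 4 and bars for mean ± SD (n = 4). KO points sit above all WT points for Acaca, Fasn and Elovl6, below them for Fabp7, Fabp5, Dbi and Slc27a2, and overlap them for Fads2, Elovl2, Elovl4, Scd1 and Scd2.

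Set side by side, the branches had small median differences of opposite sign, beside a median of -0.02 over all tested genes. The saturated branch (Acly, Me1, Acaca, Acacb, Fasn, Elovl1, Elovl3, Elovl6 and Elovl7) had 8 tested genes of 9, with a positive difference in 6, a negative one in 2 and none called, and a median difference of 0.10. The polyunsaturated branch (Fads1, Fads2, Elovl2, Elovl4 and Elovl5) had 5 tested genes of 5, of which 2 were higher and 3 lower with none called, and a median of -0.05. Under quantile normalization these medians were 0.13 and -0.0122. For each array, the deviation of each gene from its WT mean was averaged over a branch. The saturated branch averaged 0.08, 0.11, 0.08 and 0.10 on KO replicates 1 to 4 and between -0.02 and 0.03 on the WT arrays. The polyunsaturated branch averaged -0.06, -0.12, -0.04 and -0.15 on the KO arrays and between -0.03 and 0.02 on the WT arrays. Saturated minus polyunsaturated was 0.14, 0.22, 0.12 and 0.25 on the KO arrays and -0.04 to 0.06 on the WT arrays. The lists were drawn with results of these data known, so this is a description with no test. The differences over 0.1 were those of Acaca, Fasn, Elovl6 and Elovl7 on one side and of Fads2 and Elovl2 on the other, and Acly, Me1, Acacb, Elovl1, Elovl4, Elovl5 and Fads1 were each within 0.1 of no difference.

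**Figure D3:**
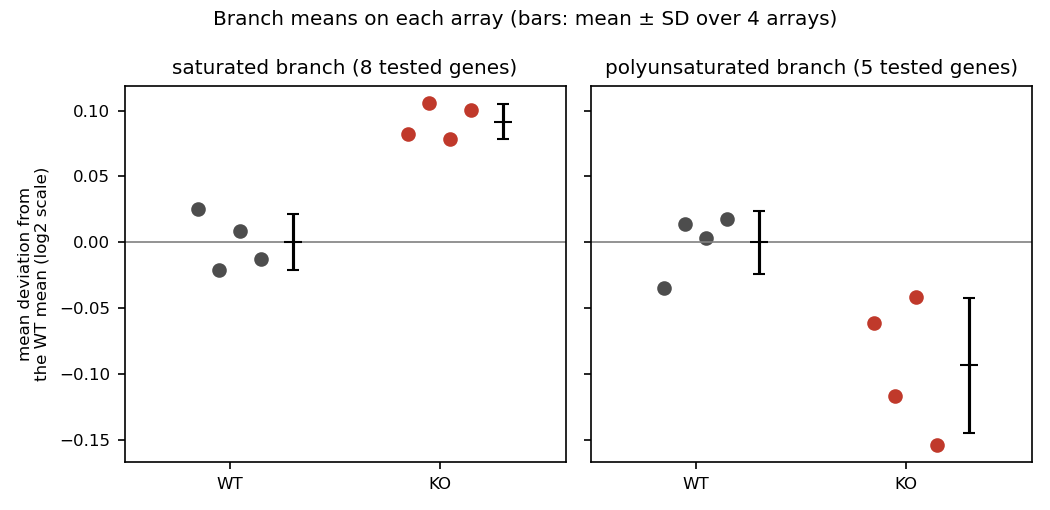
Mean deviation from the WT mean (y axis, log2 scale) over the tested genes of each branch, with 1 point an array and bars for mean ± SD over 4 arrays. The KO points lie between 0.08 and 0.11 for the saturated branch and between -0.15 and -0.04 for the polyunsaturated branch.

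The enzymes that the branches share differed little. Hsd17b12, the ketoacyl reductase of the elongation cycle, differed by 0.06, Hacd3, a dehydratase of the cycle, by 0.05 and Tecr, the enoyl reductase, by -0.06, and none was called (limma adjusted p from 0.418 to 0.585). Hacd3 was 0.128 under quantile normalization and 0.0183 to 0.0708 when single arrays were left out. Fads3, a relative of the desaturases, differed by 0.07 (limma adjusted p = 0.365). Fads6 was too dim to test, clear of background on 1 WT array and no KO array.

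The acyl-CoA synthetases, which activate fatty acids by joining them to coenzyme A, included no called gene among 6. Acsl1 had WT levels of 3.65 to 3.72 and KO levels of 3.50 to 3.59, which did not overlap, and differed by -0.13 (95% interval -0.21 to -0.04, limma adjusted p = 0.0884). Its other probe gave -0.11. Acsl3 differed by 0.08, Acsl4, which prefers arachidonate, by 0.01, Acsl5 by -0.02, Acsl6, tied to docosahexaenoic acid in neural tissue, by -0.04 and Acsbg1 by 0.15. With normexp Acsbg1 was 0.0418, and it ran from 0.0799 to 0.206 when single arrays were left out. Acsl1 was -0.0805 under quantile normalization, and Acsl3 was 0.0422 without KO replicate 3.

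Of the transport proteins, Slc27a2, a very-long-chain acyl-CoA synthetase and transporter, was lower on every KO array. It was at -3.70, -3.73, -3.80 and -3.46 in WT and -3.94, -4.26, -3.85 and -4.29 in KO. The groups did not overlap, though KO replicate 3 came within 0.1 of WT replicate 3. The difference was -0.41 (95% interval -0.68 to -0.14, limma adjusted p = 0.0819), so it was not called, and it was -0.13 with normexp background correction. Slc27a1 differed by 0.00 and Slc27a4 by -0.11 (limma adjusted p = 0.335), or -0.0691 with normexp. Cd36, a fatty acid receptor, was too dim to test, clear of background on 2 WT arrays and 1 KO array.

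The proteins that bind fatty acids and acyl-CoA held the called gene, Fabp7. The differences of 4 of these 5 were negative, as were those of 57.8% of all tested genes, and 3 of the 4 (Fabp5, Fabp12 and Dbi) did not pass both limits. Fabp7, the brain-type fatty acid binding protein, known from glia and their progenitors, binds docosahexaenoic acid. It was at 0.45, 0.45, 0.40 and 0.55 in WT and 0.00, 0.15, 0.24 and 0.02 in KO. Every KO array was below every WT array. The difference was -0.36 (SE 0.06, 95% interval -0.51 to -0.21, limma adjusted p = 0.0233), which put KO at 77.9% of WT. The call was lost when the arrays were shifted by their median (limma adjusted p = 0.0593) or dim probes were kept (0.0802). Leaving out single arrays kept the difference between -0.41 and -0.33, and the call held in 2 of 8 runs (without KO replicate 1 or 3), with a limma adjusted p of up to 0.0693 in the others.

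Dbi, the acyl-CoA binding protein, was at 5.91, 5.86, 5.88 and 5.89 in WT and 5.71, 5.69, 5.71 and 5.65 in KO. Its groups were apart by more than either group's own range. The difference was -0.19 (95% interval -0.27 to -0.11, limma adjusted p = 0.0240), a 1.14-fold change and under the fold limit, and its second probe also gave -0.19 (limma adjusted p = 0.0449). Under quantile normalization it was -0.10 (limma adjusted p = 0.138).

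Fabp5, the epidermal-type binding protein, was at 4.09, 4.10, 4.06 and 4.16 in WT and 3.91, 4.00, 3.91 and 3.83 in KO. The groups did not overlap, with a difference of -0.19 (95% interval -0.30 to -0.09, limma adjusted p = 0.0511). Fabp12, a retinal member of the family, differed by -0.12 (limma adjusted p = 0.332) and by -0.16 on its other probe, and its difference was -0.0599 under quantile normalization and -0.0749 without KO replicate 1. Fabp3, the heart-type protein, differed by 0.06 (limma adjusted p = 0.426), and by -0.00996 on its other probe. The thioesterases, which free fatty acids from coenzyme A, showed no called gene, with Acot1 at 0.01, Acot2 at -0.04 and Acot7, the brain acyl-CoA hydrolase, at 0.04. Acot1 and Acot2 are near-identical copies and may share signal.

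**Figure D4:**
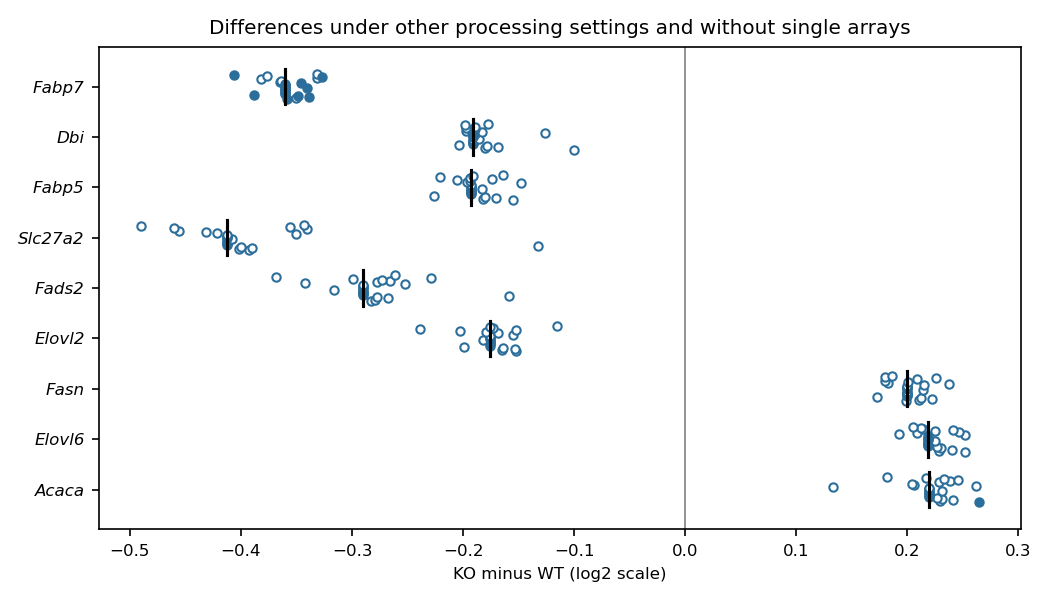
Difference between KO and WT (x axis, log2 scale) of 9 members under each processing setting and with each array left out. The vertical bar is the reported value, and filled points are calls at the limits of that setting. All points of a gene stay on one side of 0, and Fabp7 has filled points at some settings and open ones at others. Acaca (quantile normalization), Elovl6 and Dbi (both with no minimum fold change) have 1 filled point each.

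In the wider pathway, 48 further genes on the array that regulate, supply or extend it were looked up, and 44 were tested. Of these, 18 were higher and 26 lower, with a median of -0.03, and 2 were called, both higher. Of all tested genes, 42.2% were higher and 57.8% lower, so the split of the list is close to theirs, and 1.99% were called higher and 1.49% lower. Acot11, an acyl-CoA thioesterase, was at 0.53, 0.55, 0.46 and 0.52 in WT and 0.82, 0.89, 0.89 and 0.88 in KO, with no overlap. It rose by 0.36 (SE 0.04, limma adjusted p = 0.00535). Slc27a5, a bile acid and very-long-chain acyl-CoA synthetase, was at -2.67, -2.78, -2.72 and -2.83 in WT and -2.36, -2.32, -2.43 and -2.46 in KO, again with no overlap. It rose by 0.36 (SE 0.05, limma adjusted p = 0.014), and was not called without WT replicate 2 (limma adjusted p = 0.0518) or with dim probes kept (0.0559), or with normexp background correction, where it was 0.26 and just under the fold limit.

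The sterol and lipogenic regulator Srebf1 was lower on all KO arrays, by -0.15 (limma adjusted p = 0.0631), or -0.0657 with normexp (limma adjusted p = 0.353), and Srebf2 differed by 0.04 (limma adjusted p = 0.645). Of the proteins that bring docosahexaenoic acid into the retina, Mfsd2a differed by -0.09 (limma adjusted p = 0.563), or -0.159 to -0.0419 when single arrays were left out, and Adipor1 by -0.15 (limma adjusted p = 0.194). None of these 4 was called.

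Cell type markers moved with genotype beside these genes, and in whole retina fewer cells of a type and less RNA per cell cannot be told apart. The shares over all tested genes were 42.2% higher and 57.8% lower, with 1.99% called higher and 1.49% called lower. Rod markers were lower for 9 of 9 genes (median -0.21, 2 called: Sag -0.36 and Nr2e3 -0.50). Gnat1 (-0.04) and Pde6a (-0.06) differed least among them. The summed level of the rod markers was 1809 to 1878 in WT and 1542 to 1617 in KO. Müller glia markers were higher for 9 of 10 (median 0.18, 3 called: Kcnj10, Apoe and Clu), with summed levels of 343 to 361 and 409 to 418. That sum is not on the log2 scale, so Clu and Apoe, with the highest levels of the list, weigh most in it. Slc1a3 (-0.04), Vim (0.03) and Sox9 (0.05) differed little. Microglia and macrophage markers were higher for 10 of 10 (median 0.47, 6 called), with summed levels of 13.1 to 14.1 and 16.5 to 17.2. None of these markers was below background on all arrays. Cone markers were higher for 8 of 8 (median 0.17, 2 called). Astrocyte markers were higher for 3 of 3 (median 0.24, none called), with summed levels of 2.80 to 3.76 and 3.82 to 4.06. Amacrine and horizontal cell markers were higher for 7 of 9 (median 0.12, none called), and endothelium markers for 2 of 7 (median -0.11, 1 called higher). Fabp7 was lower while the Müller glia and astrocyte lists had positive medians, and Elovl4 differed by -0.05 while the rod list had a median of -0.21. The part of these shifts in the differences of the fatty acid genes was not tested.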

How the data were processed

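Total RNA of whole retina was measured on 1-colour (Cy3) Agilent SurePrint G3 mouse arrays in 4 WT and 4 KO samples, with group and replicate number taken from the sample labels. The authors quantified the scans with Agilent Feature Extraction 10.7.1.1 (submitters' processing notes), and the deposited scanner files hold each spot's intensity, background-subtracted and not scaled between arrays. The authors' table of the series holds log2 values after a 75th percentile shift in GeneSpring. It differed from the values computed here by 0.12 to 0.15 on each array (SD at most 0.00667; column medians -3.21 to -3.31), and served as an alternative. Unused per-sample columns numbered 0.

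The level was log2 processed signal less the 75th percentile of that array, taken over the 59305 spots of 62976 that are not controls. Outlier spots (86 to 147 per array) were left out, and spots of a probe were averaged. Probes entered the test if every array of either genotype had them well above background (33972 of 55681 probes). Symbols came from a RefSeq table (GRCm38.p6, names only) by transcript accession and named 26413 probes (47.4%). A gene's value was its probe with the highest mean over 8 arrays. Differences were tested with limma 3.58.1 in R 4.3.3, and the fit was tested on simulated data. The exact permutation test is two-sided, with a smallest p of 0.0286. Array number limits the precision.

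The members and lists were chosen with earlier results of these data known. In the rod marker list, 1 gene is not reported here and was left out of its counts and sums. The array values were given for called members, for the enzymes of both branches with Scd1 and Scd2, and for uncalled members with groups apart and a fold over 1.2. Those of Dbi and Fabp5, and of 2 further pathway genes, were added after their values were seen. Other pathway genes named were the called ones, Srebf1, Srebf2, Mfsd2a and Adipor1. Alternatives were other normalizations, background correction, filters, tests, thresholds, a replicate block and leaving out each array. Cyclic loess, and the alternatives for these further pathway genes, were added after seeing the data. normexp was run on the median spot signal.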

Additional observations from a re-analysis of the deposited data

Results flagged for a closer look

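Of 78 groups of 4 arrays checked (39 tested genes in each genotype), 5 held an array far from the others by Dixon's criterion, and chance gives about 1 in 20. Fads1 was at 0.93 on WT replicate 3, with the nearest WT array at 1.04. Fads2 was at -2.49 on WT replicate 1, with the nearest at -2.29. Fads3 was at 0.99 on WT replicate 2, with the nearest at 0.95. Acsl5 was at -0.51 on WT replicate 4, with the nearest at -0.68, and at -0.83 on KO replicate 1, with the nearest at -0.64.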

How the results depend on the processing

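Members called higher numbered 1 under quantile normalization (Acaca) and 1 with no minimum fold change (Elovl6). Members called lower numbered 0 with the median shift, with no filter on dim probes, and at a fold change over 1.5, 2 with no minimum fold change, and 0 to 1 when single arrays were left out (0 without any one of WT replicates 1 to 4 or KO replicates 2 and 4). Further pathway genes called numbered 1 with normexp, 1 with no filter, 0 at a fold change over 1.5, and 1 to 2 when single arrays were left out. The saturated median was 0.13 under quantile normalization and 0.13 under cyclic loess, and the polyunsaturated median -0.0122 and -0.00475. With the replicate number as a block, 0 members were called lower, as Fabp7 had an adjusted p of 0.0722. Same-numbered arrays correlated by 0.04 to 0.25, and not every pair was over 0.1, so the block was not used in the reported fit. Of 8 arrays, 7 correlated best with their own number, which is a hint of shared structure from the data and not from the design.

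Values near 0 changed sign. These were, under quantile normalization, Scd2 (0.0503), Tecr (0.00452) and Slc27a1 (0.0244), under the median shift Scd2 (0.00575) and Slc27a1 (0.00967), with the percentile of detected probes Scd2 (0.0174) and Slc27a1 (0.0214), with the authors' values Scd2 (0.00743) and Slc27a1 (0.0113), and with normexp Slc27a1 (0.0354) and Acot2 (0.0228). Array weights gave Acacb (-0.00370), Scd3 (-0.0216), Acsl5 (0.000961), Acot1 (-0.00580) and Acot2 (0.0258), the mean of a gene's probes Scd3 (-0.0253), and cyclic loess Scd2 (0.0489) and Slc27a1 (0.0179). Leaving out single arrays gave Scd2 -0.0176 to 0.00622, Scd3 -0.0198 to 0.0374, Slc27a1 -0.0226 to 0.0351, Acot1 -0.0442 to 0.0678, Acot2 -0.176 to 0.0613, Acacb -0.0226 to 0.0556, Acsl4 -0.0115 to 0.0415, Acsl5 -0.0459 to 0.0257 and Fads1 -0.0241 to 0.0182. The cause was not tested. Elovl3, Fads6 and Cd36 were too dim for a difference to be given.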
